A study of Mus musculus with 8 samples.

Results

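The mouse homeobox gene Cdx1 lies on chromosome 18, and the account that follows concerns the rest of that chromosome: every array probe whose mapped start lies more than 10 Mb from the start of the Cdx1 probe, on either side. The Cdx1 probe covers chromosome 18 from 61178558 to 61178617 in the mm9 build, so the members start below 51178558 or above 71178558. There were 1146 such probes of 55681 non-control probes on the array, against 364 on chromosome 18 within 10 Mb of Cdx1 and 53596 on other chromosomes. Their starts ran from 3003606 to 90762551, and the array or its annotation gave them 693 gene or transcript names. The rule for members uses map positions only, but it was set with earlier results of these data known.

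Total RNA of 3 samples labelled Cdx1+/+ and 3 labelled Cdx1-/- came from mature medullary thymic epithelial cells (mTEC) of mice on a mixed C57BL/6 and 129 background, each pooled from 4 to 6 thymi. The cells were sorted as Epcam+ UEA1+ CD45- Fluorogold- CD80hi MHCIIhi, that is, live epithelial cells of the thymic medulla with high CD80 and MHC class II. One further sample of each genotype, pooled from 3 mice, held small intestinal epithelial cells (SIEC) sorted as Epcam+ CD45- Fluorogold-. The question was how far from the targeted gene the mTEC of the 2 genotypes differ on its chromosome. How the Cdx1 allele was built, the number of backcross generations and the age of the mice are not given in the sources used here, and nothing says whether the pools shared litters.

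Cdx1 is best known as a transcription factor of the intestinal epithelium. Mature mTEC transcribe many genes that are otherwise restricted to single tissues, among them skin, gut, liver and brain genes, which serves to present those products to developing T cells. In crosses between inbred strains, variants that lie near an allele followed through the cross are inherited together with it over a distance set by recombination, so that homozygous mutant and wild-type mice can also differ in strain origin along the flanking chromosome. An array probe reads both the amount of a transcript and, where a strain variant lies under the probe, how well that variant binds.

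Levels are log2 of the scanner's processed intensity relative to the 75th percentile of its array, so 0 is the 75th percentile, and differences are Cdx1-/- minus Cdx1+/+ on that log2 scale. The Cdx1 probe read 5.88, 5.91 and 5.97 in Cdx1+/+ mTEC and 4.80, 4.99 and 5.00 in Cdx1-/- mTEC, a difference of -0.99 ± 0.09 (SE, limma adjusted p = 0.00517). In the SIEC pair the same probe went against the labels, reading 4.87 where the label is Cdx1+/+ and 6.48 where it is Cdx1-/-. Between 58.6% and 63.5% of spots were well above background on the mTEC arrays and between 44.6% and 46.3% on the SIEC arrays, and no spot was saturated. Of the 6 mTEC arrays, all but Cdx1-/- replicate 1 shared slide 1. All 10 markers fixed for mature mTEC, Aire and Fezf2 among them, were well above background on all 6 mTEC arrays, and the log2 of their summed signal was 8.59 to 8.78 in Cdx1+/+ and 8.58 to 8.76 in Cdx1-/-. The sum over 4 dendritic cell and macrophage markers was 3.44 to 3.72 against 4.00 to 4.15, and that over 6 gut epithelium markers 4.08 to 4.26 against 3.06 to 3.28. In these bulk samples, fewer cells of a type and less RNA per cell cannot be told apart.

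Of the 1146 members, 633 were tested (55.2%), because at least 2 arrays of either mTEC genotype read them well above background. They stand for 453 gene or transcript names. The other 513 were too dim, and 439 of those were above background on no mTEC array. Passing on 1 genotype was enough to be tested, so the tested members are not a sample of all members.

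Far from Cdx1, the total share called on chromosome 18 was near that of the other chromosomes, with 1 local exception on the higher-coordinate side. Its split by direction was not. The limma test called 73 of the 633 tested members (11.5%) at an adjusted p under 0.05, where it called 10.5% of all 33520 tested probes. Of these, 23 were higher in Cdx1-/- mTEC (3.63% of the tested members) and 50 lower (7.9%). Over all tested probes, 5.15% were called higher and 5.34% lower. Every other chromosome had a smaller share called lower, at most 6.88% on chromosome 1. Each also had a larger share called higher, at least 3.84% on chromosomes 5 and 17. On the other chromosomes, probes weighted to the members' levels were called in 10.3% of cases, and 5 of the 19 other chromosomes had a share at or above the members' 11.5%. The median difference of the tested members was -0.03, and of all tested probes 0.00.

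Calls of at least 2-fold stood further from the background than calls of any size. They numbered 19 members (3%), 7 higher and 12 lower, against 1.8% of all tested probes. At the members' levels the share on other chromosomes was 1.92%, and chromosome 15, at 3.14%, was the 1 other chromosome at or above 3%. In 232 members (36.7%) all 3 arrays of one genotype lay above all 3 of the other, with 36.4% over all tested probes. Whether these shares differ from those of other chromosomes was not tested, because neighbouring probes are not independent.

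**Figure D1:**
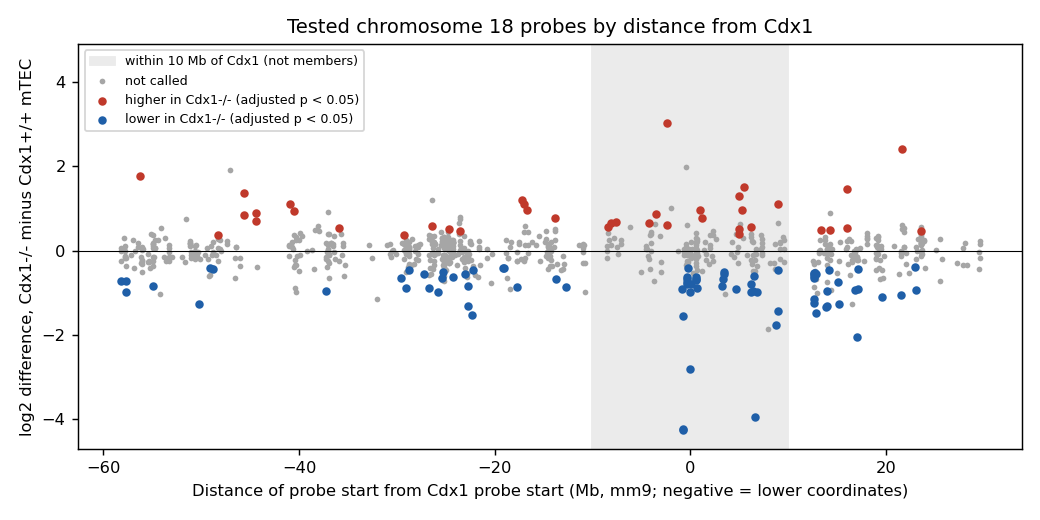
Each point is a tested chromosome 18 probe; the x axis is its distance from the Cdx1 probe in Mb and the y axis the log2 difference between Cdx1-/- and Cdx1+/+ mTEC (3 arrays each). Coloured points passed an adjusted p of 0.05; between 10 and 15 Mb on the higher-coordinate side 13 of the 15 called probes lie below 0.

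The excess lay on the side of higher coordinates and mostly in its nearest stretch. There, 29 of 168 tested members were called (17.3%), 6 higher and 23 lower, and 11 were called at 2-fold or more (6.55%). On the lower-coordinate side 44 of 465 were called (9.46%), 17 higher and 27 lower, and 8 of them at 2-fold or more (1.72%). Within 10 Mb of Cdx1, where probes are not members, 46 of 189 were called (24.3%). Across the tested members, the absolute difference and the distance from Cdx1 had a Spearman correlation of -0.20 on the higher side (n = 168 probes) and -0.04 on the lower side (n = 465), as a description over probes that share arrays and, in part, genes.

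In 5 Mb steps away from Cdx1 on the higher side, 15 of 46 tested members were called between 10 and 15 Mb (32.6%), 9 of 61 between 15 and 20 Mb (14.8%), 5 of 47 between 20 and 25 Mb (10.6%) and 0 of 14 beyond 25 Mb, where 1 had an unadjusted p under 0.05. The corresponding shares on other chromosomes, at the same levels, lay between 9.82% and 11% in every bin. Between 10 and 15 Mb the share was thus above that between 0 and 5 Mb (23.1%) and between 5 and 10 Mb (26.9%) on the same side, and past 20 Mb the shares were near or below the background. On the lower side the first bin, 10 to 15 Mb, held 3 calls among 41 tested members (7.32%), below its background, and the next, 15 to 20 Mb, held 6 among 32 (18.8%). Further out on that side the shares moved between 0 of 10 members at 30 to 35 Mb, where 0 had an unadjusted p under 0.05, and 4 of 23 at 40 to 45 Mb (17.4%) with no trend.

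Other chromosomes, cut into 433 stretches of 5 Mb with at least 20 tested probes each, give a scale for these shares. Their share called had a median of 10%, a 5th percentile of 3.17%, a 95th percentile of 19.5% and a highest value of 36.4%. Of the 433 stretches, 2 reached the 32.6% of the higher 10 to 15 Mb bin, and 5 reached its 2-fold share of 10.9%. That bin was the highest of the member bins in both shares, and its tested probes span less than 5 Mb, so its ranks are a description. By comparison, 85 reached the share between 15 and 20 Mb on the higher side, 32 that between 15 and 20 Mb on the lower side, and 314 that between 10 and 15 Mb on the lower side. With the members closer than 15 Mb left out, a boundary chosen after seeing the data, 55 of 546 were called (10.1%) and 2.56% were called at 2-fold or more.

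**Figure D2:**
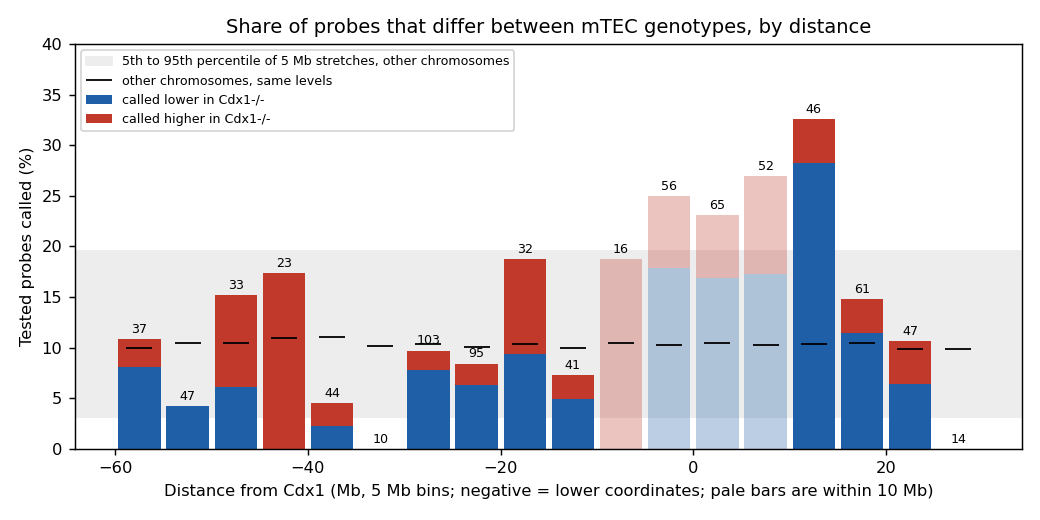
Bars give the share of tested probes called (percent) in 5 Mb bins of distance from Cdx1, split into higher and lower in Cdx1-/- mTEC, with the number of tested probes above each bar; pale bars lie within 10 Mb of Cdx1. Dashes mark other chromosomes at the same levels and the grey band the 5th to 95th percentile of 5 Mb stretches of other chromosomes (3.17% to 19.5%); among the member bins, that at 10 to 15 Mb on the higher side (32.6%) is the 1 bar above the band.

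The number of calls depended on which arrays were used, and so did the share in the higher 10 to 15 Mb bin, which in each fit below was above that of the other chromosomes. Leaving out any 1 of the 6 mTEC arrays left between 30 and 41 called members (4.93% to 6.53%) where other chromosomes had 3.13% to 5.54%. In the higher 10 to 15 Mb bin the share was then 13% to 19.6%. With slide as a block it was 19.6%, beside 5.25% on other chromosomes, and 39 members were called in all. The array on slide 2 was Cdx1-/- replicate 1, the only mTEC array there, so a slide term takes it out of the comparison. The fit within slide 1, which gave the bin the same 19.6%, is therefore not a separate check. Between 15 and 20 Mb, leaving out 1 array gave 9.84% to 11.9% on the higher side and 9.68% to 15.6% on the lower side, in place of 14.8% and 18.8%; the lowest values came without Cdx1-/- replicate 3 and without Cdx1+/+ replicate 3. Without a filter on dim probes, 1.66% of members and 5.13% of the bin were called, beside 1.26% on other chromosomes.

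The higher 10 to 15 Mb bin held 46 tested probes of 29 gene or transcript names between starts 73751801 and 75682397. No tested member lay between the 10 Mb boundary and the first of these. Of the 46 probes, 32 lay below 0 (69.6%), against 49.6% of probes on other chromosomes, and their median difference was -0.26. The 433 stretches of other chromosomes had medians between -0.30 and 0.27.

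Within that bin the probes below 0 sat together at its near end. From Mex3c, an RNA-binding ubiquitin ligase gene, the first 19 tested probes in chromosome order were all lower in Cdx1-/- mTEC by their mean, and 9 of them, among them probes of Smad4, Elac1 and Mro, passed the test. The other called probes there carry the names of long intergenic RNAs or an expressed sequence. This run was noticed after the values were seen. Runs of 1 sign at least as long occurred 12 times among 12979 runs on other chromosomes, where the longest held 28 probes, and the members' longest run, of 21 probes, lay on the other side of Cdx1 between 38004496 and 38519477 with 3 called probes.

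Smad4 encodes the partner shared by all receptor-activated Smads, which carries TGF-beta and BMP signals into the nucleus. Its probe at 73798670 to 73798729 read 3.95, 3.85 and 3.90 in Cdx1+/+ mTEC and 3.38, 3.35 and 3.34 in Cdx1-/- mTEC. The 2 groups did not overlap and lay far further apart than their spread, with a difference of -0.54 ± 0.08 (SE, limma adjusted p = 0.0139). The second Smad4 probe fell by 0.65 (adjusted p = 0.0435).

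Mro, a gene first described in the developing testis, gave the largest fall in the bin. Its probe at 74037085 to 74037144 read -1.94, -2.04 and -1.84 in Cdx1+/+ mTEC against -3.85, -3.20 and -3.22 in Cdx1-/- mTEC. All 3 mutant arrays were lower, by 1.48 ± 0.19 on average (SE, limma adjusted p = 0.00997), well past the spread within either genotype. A second Mro probe fell by 0.55 (adjusted p = 0.0445), a call that was lost in the authors' deposited values.

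Between Smad4 and Mro lie Elac1, a tRNA-processing endonuclease gene, and Me2, which encodes mitochondrial malic enzyme. Elac1 read -2.08, -2.23 and -2.28 against -2.94, -2.59 and -2.68, a difference of -0.54 (limma adjusted p = 0.0393, and 0.0698 with the replicate block). Me2 read 0.03, -0.00 and 0.07 against -0.67, -0.28 and -0.38, a difference of -0.47 that missed the threshold (adjusted p = 0.0561). The arrays of the 2 genotypes did not overlap for either gene.

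The far end of the bin was mixed. Cfap53, a gene of motile cilia, rose from 1.20, 1.27 and 1.13 to 1.63, 1.71 and 1.72, a difference of 0.49 (limma adjusted p = 0.0201). Lipg, the endothelial lipase gene, read -2.92, -3.45 and -4.06 in Cdx1+/+ mTEC and -5.24, -4.48 and -4.72 in Cdx1-/- mTEC, where 1 of 3 arrays was above background. Its difference of -1.34 passed the test (adjusted p = 0.0464) but not with the replicate block (0.0772) or with slide as a block (0.105). Dym, which encodes a Golgi-associated protein, fell by 0.46 (adjusted p = 0.0232).

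Rpl17, a ribosomal protein gene, shows how far probes of 1 gene can part in this stretch. One of its 7 tested probes fell from -0.16, -0.47 and -0.34 to -1.25, -1.45 and -1.19, a difference of -0.97 (limma adjusted p = 0.00906). The other 6 had differences of -0.74 to 0.03 and did not pass, the 4 brightest of them between -0.17 and 0.03. Ribosomal protein genes have many near-identical copies, so which transcripts each probe reads is uncertain.

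**Figure D3:**
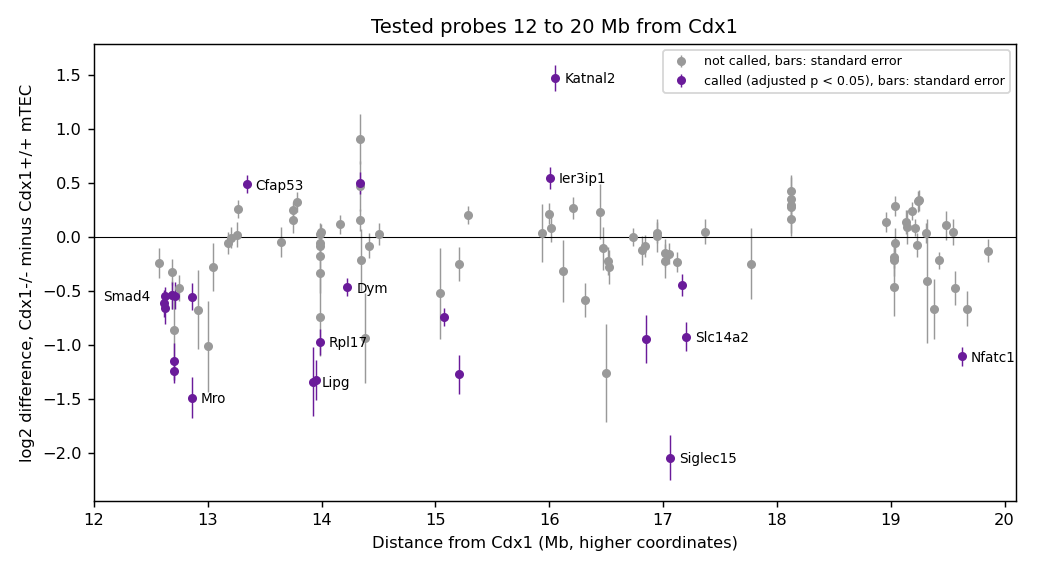
Log2 difference (y axis) of each tested probe between 12 and 20 Mb from Cdx1 (x axis, Mb) on the higher-coordinate side, with standard errors from limma on 3 arrays per genotype; purple points passed an adjusted p of 0.05. From Mex3c to Mro every point lies below 0, while Katnal2, Ier3ip1 and Cfap53 lie above it.

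Between 15 and 20 Mb, single genes with large differences stood among many that differed little. Siglec15, which encodes a sialic acid-binding receptor of osteoclasts and macrophages, lies 17.1 Mb from Cdx1 (78240353 to 78240412). It read -0.80, -1.28 and -0.86 in Cdx1+/+ mTEC against -3.38, -2.71 and -2.96 in Cdx1-/- mTEC. It had the lowest log2 difference of any called member, and the call held under each of the 15 alternative fits. The summed signal of dendritic cell and macrophage markers moved the other way between the genotypes, as given above. Among them Lyz2 (0.93) and Cd68 (0.46) were higher in Cdx1-/- mTEC, while Itgax (-0.16) and Flt3 (-0.25) were lower. Their part in this result was not tested.

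Nfatc1, a calcineurin-regulated transcription factor gene at 19.6 Mb, read 0.55, 0.48 and 0.52 in Cdx1+/+ mTEC and -0.69, -0.56 and -0.50 in Cdx1-/- mTEC. Arrays within a genotype differed little, and the difference was -1.10 ± 0.09 (SE, limma adjusted p = 0.00383). A second Nfatc1 probe gave -0.66 (adjusted p = 0.0506). Slc14a2, a urea transporter gene of the kidney, fell on 2 probes, by 0.92 (adjusted p = 0.0133) and by 0.44 (adjusted p = 0.0429).

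Katnal2, a katanin-like gene linked to cilia and sperm, was well above background on all 3 Cdx1-/- arrays and on no Cdx1+/+ array, and was at least 1.93-fold higher in the mutant. At-least folds set the bright group's mean against the background limit of the dim arrays. Ier3ip1, which encodes a small endoplasmic reticulum protein, read 1.99, 1.77 and 2.01 against 2.51, 2.43 and 2.46. Its rise of 0.55 passed the test (limma adjusted p = 0.0228), but the call was lost without any 1 of the 6 arrays. A second, brighter Ier3ip1 probe gave 0.22 and did not pass (adjusted p = 0.182).

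Past 20 Mb on the higher side, 5 members were called. Zfp236, a zinc finger gene, fell from -1.28, -1.51 and -1.53 to -2.82, -2.08 and -2.57 (difference -1.05, limma adjusted p = 0.0242). A probe for a long intergenic RNA at 82875474 to 82875533 had the largest rise of any member, from -4.90, -5.29 and -4.56 to -2.66, -2.85 and -1.98. Its difference was 2.41 ± 0.27 (SE, adjusted p = 0.00767), and 2 of the 3 Cdx1+/+ arrays were above background. A second probe of the same RNA gave 0.60 and did not pass (limma adjusted p = 0.0578). Tshz1, another zinc finger gene, fell by 0.39 (adjusted p = 0.0293).

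The lower-coordinate side gave the other rises. Aqp4, the main water channel of astrocytes, lies 45.6 Mb from Cdx1 (15547951 to 15548010). It read -1.51, -1.62 and -1.50 in Cdx1+/+ mTEC against -0.08, -0.19 and -0.23 in Cdx1-/- mTEC. The difference of 1.37 ± 0.09 (SE, limma adjusted p = 0.00236) had the smallest adjusted p of any member, and a second Aqp4 probe rose by 0.85 (adjusted p = 0.0108).

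Spink5, an inhibitor of serine proteases in stratified epithelia, rose from 3.50, 3.52 and 3.45 to 4.73, 4.43 and 4.62 at 17 Mb from Cdx1. Its neighbour Gm94 rose from 2.80, 2.84 and 3.02 to 4.11, 3.94 and 4.20, a difference of 1.20 ± 0.11 (SE, limma adjusted p = 0.00477). Myot, a gene of the muscle Z-disc 16.7 Mb from Cdx1, rose by 0.96 (adjusted p = 0.00601). Together with 3 falls, the largest that of the kinase gene Stk32a by 0.85 on the dimmer of 2 probes (adjusted p = 0.0191), these make up the 6 calls between 15 and 20 Mb on this side.

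Between 20 and 30 Mb the lower side held 198 tested members, and 14 of its 18 calls were falls. Pcdh12, a protocadherin of endothelial cells, fell from 0.47, 0.59 and 0.34 to -0.90, -0.66 and -0.96. The difference was -1.30 ± 0.12 (SE, limma adjusted p = 0.00435), many times the spread within a genotype. Ecscr, an endothelial surface protein gene, fell by 0.51 (adjusted p = 0.0345), and Arap3, a regulator of small GTPases active in vessel formation, by 0.55 on 1 of 2 probes (adjusted p = 0.0171). These 2 genes were named after their values were seen. The log2 summed signal of 3 endothelium markers was 1.17 to 1.69 in Cdx1+/+ and 0.53 to 1.38 in Cdx1-/- mTEC, which overlap. Kdr, much the brightest of them, gave -0.45, Cdh5 gave -0.45 and Pecam1 0.26, and none passed. The part of these markers in the falls was not tested.

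Smaller calls in the same stretch included Nme5, a gene of cilia and sperm, which rose by 0.58 on 1 probe (limma adjusted p = 0.0192). Its brighter probe gave 0.35 and did not pass (adjusted p = 0.0569). Cystm1 rose by 0.51 on 1 probe (adjusted p = 0.0146) while its dimmer probe gave -0.29 (adjusted p = 0.571). Lrrtm2, a synaptic adhesion gene, was well above background on all 3 Cdx1+/+ arrays and on no Cdx1-/- array, and was at least 1.62-fold lower in the mutant. Further out, BC025933, at 56.2 Mb, was called higher with no Cdx1+/+ array above background and was at least 1.52-fold higher in Cdx1-/- mTEC. Fhod3, a formin gene of muscle at 35.9 Mb, gave 0.53 (adjusted p = 0.0477), a call lost under 12 of 15 alternatives, the replicate block among them (0.0549).

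**Figure D4:**
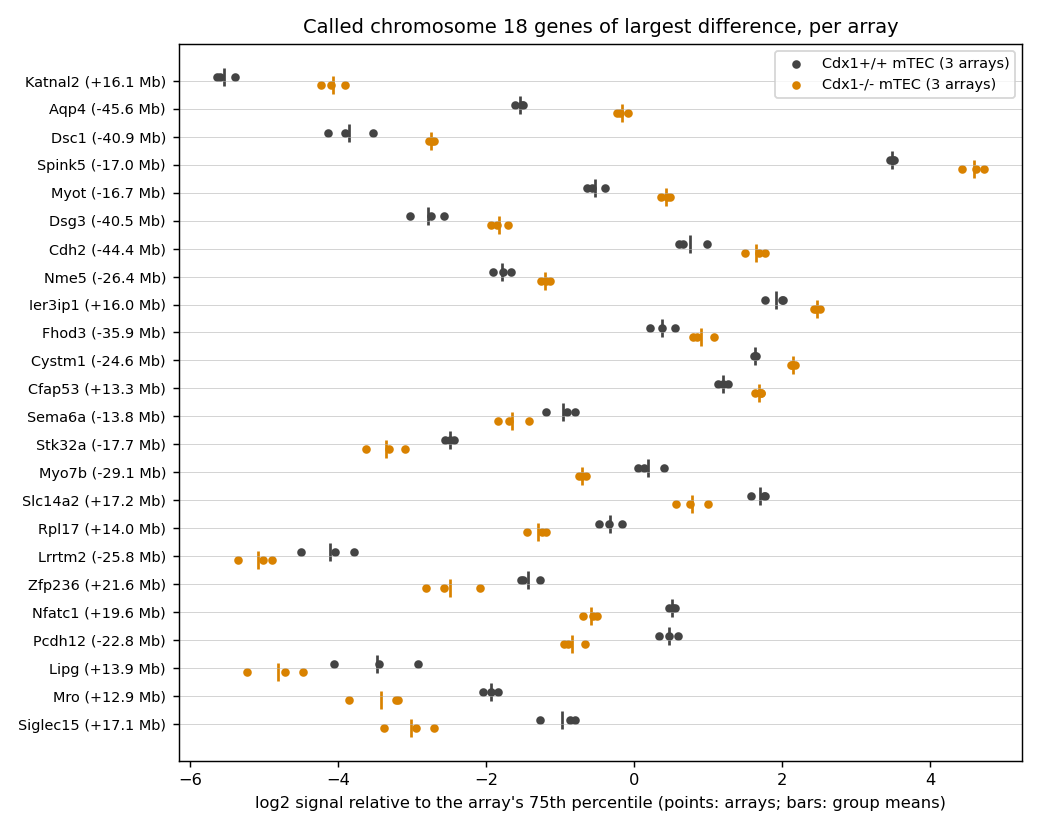
The 24 genes of largest difference, 12 higher and 12 lower, among called members with an ordinary gene symbol (long intergenic RNA, clone and predicted-gene names left out), with their signed distance from Cdx1; each point is 1 array, grey for Cdx1+/+ and orange for Cdx1-/- mTEC, on a log2 scale relative to the array's 75th percentile (x axis), and upright bars are group means of 3. In every gene shown all 3 arrays of one genotype lie to one side of the other 3, which was part of how they were chosen.

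Gene families that lie in clusters on chromosome 18 moved unevenly. The desmosomal and classical cadherins, which join cells of epithelia, have 10 members here, all tested. By limma 3 rose and 0 fell, where 2 were lower at an unadjusted p under 0.05. The median difference of the 10 was 0.13, beside 0.00 for all tested probes. In these counts and medians a gene with several probes is represented by its brightest. Dsc1, of the upper layers of stratified epithelium, rose from -3.91, -3.53 and -4.13 to -2.78, -2.71 and -2.74, by 1.12 (limma adjusted p = 0.0127). Dsg3, the desmoglein of deeper layers, rose by 0.95 on 1 of 3 probes (adjusted p = 0.0137), and Cdh2, neural cadherin, by 0.89 and 0.71 on its 2 probes (adjusted p = 0.0146 and 0.0292). Dsg4, of the hair follicle, gave -0.38 (adjusted p = 0.0528).

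The clustered protocadherins, cell-surface proteins of neurons read from large gene arrays, were mostly dim. Of 35 members 13 were tested, and 1 of these rose, Pcdhb21, by 0.46 (limma adjusted p = 0.0328). The median of the 13 was 0.35, and Pcdhga9, at levels of 3.92, 3.96 and 3.83 against 4.10, 4.33 and 4.33, gave 0.35 (adjusted p = 0.075). A member could be tested by passing in 1 genotype alone, as Pcdhb16 did, with 1 Cdx1+/+ and 3 Cdx1-/- arrays above background. The median of the 13 is therefore not that of the family. Members of this family share much sequence, so probes may read more than 1 of them.

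A list of Spink protease inhibitor genes and their neighbours had 7 members, of which 5, all Spink genes, were tested; Spink5 rose and the median was 0.44. The secretoglobin gene Scgb3a2 was among those too dim. Spinkl, tested in the same stretch but not on the list, gave -0.18 (limma adjusted p = 0.385). Spink12 gave 0.59 (limma adjusted p = 0.0532), and Spink1, a pancreatic inhibitor at 4.84, 4.98 and 4.76 against 4.74, 4.53 and 4.73, gave -0.19 (adjusted p = 0.283). Of 6 TGF-beta and BMP pathway genes 5 were tested; their median was -0.08, Smad4 fell, and no other member passed. Smad2, the receptor-activated partner of Smad4, gave 0.20 (adjusted p = 0.156), and Smad7, an inhibitor of the pathway, gave -0.94 at levels near background (adjusted p = 0.194).

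Genes known from gut and liver epithelium had 10 members, all tested, and by limma 2 of them fell and 0 rose. At an unadjusted p under 0.05, 2 were higher and 5 lower, and the median was -0.22. Myo7b, a brush border myosin gene, fell from 0.04, 0.40 and 0.13 to -0.65, -0.70 and -0.75, by 0.89 ± 0.12 (SE, limma adjusted p = 0.0103), and Lipg is given above. Ttr, transthyretin of liver and choroid plexus, read -0.06, 0.77 and -0.23 against -0.82, -0.75 and -0.93 (difference -0.99, adjusted p = 0.058, and 0.0496 with the replicate block). Acaa2, a mitochondrial fatty acid oxidation enzyme gene of the same list, gave 0.33 (adjusted p = 0.0696). The gut epithelium markers, given above, were lower in Cdx1-/- mTEC, and their part in these values was not tested.

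Of 13 immune genes 12 were tested; Siglec15 and Nfatc1 fell, 0 rose by limma (2 at an unadjusted p under 0.05), and the median was -0.13. The log2 summed signal of 3 B cell markers was also lower in Cdx1-/- mTEC, at 0.31 to 0.57 against 0.79 to 0.94. That of dendritic cell and macrophage markers was higher, though Itgax and Flt3 among them were lower. The part of either set in these falls was not tested. Tslp, a cytokine of epithelia, gave -0.32 (limma adjusted p = 0.108), and Rnf125, a ubiquitin ligase gene, gave -0.48 (adjusted p = 0.0832, and 0.0405 with the replicate block). Of 16 brain and myelin genes 12 were tested, with 1 that rose, Aqp4, 1 that fell, Lrrtm2, and a median of -0.17. The brighter of the 2 Stk32a probes gave -0.25 (adjusted p = 0.211). Of 16 signalling and transcription genes 15 were tested and 2 fell, the kinase gene Map3k2 by 0.47 (adjusted p = 0.0257) and Fgf1 by 0.47 (adjusted p = 0.0423). With the replicate block neither passed (0.0504 and 0.0566). A second, dimmer probe of each did not pass, with 0.09 for Map3k2 (limma adjusted p = 0.579) and -0.36 for Fgf1 (0.0875).

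Of the housekeeping genes of translation, mitochondria and RNA metabolism, all 24 were tested and the median was 0.02; Elac1 fell, and 1 rose. The rise was that of Polr2d, an RNA polymerase II subunit gene, by 0.38 (limma adjusted p = 0.049), lost under 11 of 15 alternatives, the replicate block among them (0.0698). The counts of the 9 lists rest on few genes, beside a background of 10.5%, and no list was tested as a set.

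Probes for long intergenic RNAs were called no more often than others. Among the members 12 of 134 such probes were called (8.96%) and 61 of 499 other probes (12.2%), beside 7.44% and 11% on other chromosomes. Probes lit on all 3 arrays of one genotype and on none of the other numbered 6 members (0.948%), 5 in Cdx1+/+ and 1 in Cdx1-/-. Other chromosomes had 1.06%, with 320 in Cdx1+/+ and 25 in Cdx1-/-, so the split is not particular to the members. In 120 genes with at least 2 tested probes, the differences of 2 probes parted by 2-fold or more in 2 genes (1.67%), beside 2.93% of 6321 genes on other chromosomes, and the median parting was 0.30 against 0.20. Loxhd1, a gene of inner ear hair cells, was one of them, with 0.23 on 1 probe and -1.26 on another, neither called (limma adjusted p = 0.585 and 0.125, the latter 0.049 with the replicate block).

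The single members next to the boundaries missed the threshold. The nearest tested members were a probe at 50380418, 10.8 Mb below Cdx1, which gave -0.30 (limma adjusted p = 0.255), and Mex3c, 12.6 Mb above it, which gave -0.24 (adjusted p = 0.295). Just outside the rule, Srfbp1, 8.53 Mb below, gave -0.02 and a probe 9.63 Mb above gave -0.26. Sema6a, a guidance receptor gene 13.8 Mb below Cdx1, was called lower at -0.80, -0.91 and -1.19 against -1.84, -1.42 and -1.70 (adjusted p = 0.0392, and 0.0539 with the replicate block).

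The SIEC pair has 1 array per genotype, shares no array with the mTEC comparison and carries the doubt on its labels given above, so its values have no test. Well above background on at least 1 SIEC array were 462 members, of which 34 (7.36%) differed by 2-fold or more, 27 higher and 7 lower on the array labelled Cdx1-/- (the reverse if the labels are exchanged). The share on other chromosomes was 7.37%, with 1123 probes higher and 624 lower on that array. Of the 41 called mTEC members measured in SIEC, 18 (43.9%) differed in the same direction, beside 39.1% on other chromosomes, and 0 of these 18 by 2-fold or more in SIEC. The other 23 differed in the opposite direction, 7 of them by 2-fold or more; with the labels exchanged these 23 would be those of the same direction.

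In the higher 10 to 15 Mb bin 37 members were measured in SIEC, and 2 of them differed by 2-fold or more, both higher on the array labelled Cdx1-/-. The median SIEC difference there was -0.00. Smad4, which fell on both probes in mTEC, gave 0.13 and -0.00 in SIEC, Elac1 gave 0.42 and Mro 0.88 and -0.35. Aqp4, the rise of smallest adjusted p in mTEC, gave -0.05 in SIEC, and Nfatc1 gave 0.18. Siglec15, Spink5, Myot and Katnal2 were not well above background on either SIEC array.

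**Figure D5:**
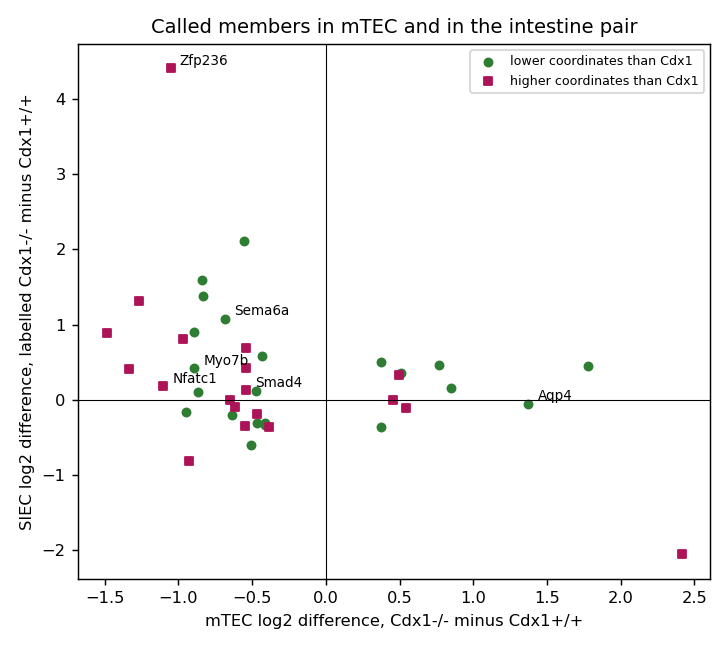
Each of the 41 called members measured in the intestine is a point, with its mTEC log2 difference (3 arrays per genotype) on the x axis and the difference between the SIEC arrays labelled Cdx1-/- and Cdx1+/+ (1 array each) on the y axis. Of the 41, 18 lie in the quadrants of equal sign and 23 in those of opposite sign.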

How the data were processed

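Total RNA of 8 samples was hybridised to 1-colour Agilent arrays. Per the file headers, the deposited intensity of each spot was made by the authors' Agilent Feature Extraction 10.7.3.1, background-subtracted, with mm9 probe positions; exon and UTR positions were not used here. The authors' deposited table of normalized values, taken to log2, held the same intensities divided by a constant per array (column medians 1) and was used as an alternative. Here log2 intensities were centred on each array's 75th percentile, outlier spots left out and spots of a probe averaged. Probes that at least 2 arrays of either mTEC genotype read well above background were tested with limma 3.58.1 (R 4.3.3) on genotype over all chromosomes, with Benjamini-Hochberg adjustment over 33520 probes; the code was tested on simulated data. p-values measure the spread between pooled samples, and the number of arrays limits precision. Of 1146 members, 489 were named through accessions in a RefSeq table used for names only; the other names are the array's. The number of value columns with no sample was 0.

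Members, lists and bins were chosen with earlier results of these data known. Named were, among called members with an ordinary gene symbol and the genotypes' arrays apart, the 12 genes of largest rise and the 12 of largest fall (1 probe each), the leading call of each 5 Mb bin, up to 4 members of smallest p per list, the members next to the boundaries, those above background in 1 genotype alone, and up to 6 genes whose probes parted most. Shares on other chromosomes were weighted to the members' counts in 10 bins of level. Alternatives covered scaling, background correction, the dim-probe filter, slide, pairing, single replicates, 1 probe per gene and bin width. The titles number the replicates but do not state that equal numbers are pairs, and the main fit did not use them as such. Deviations from the group means correlated at 0.295, 0.135 and 0.158 within the 3 numbers. Between unlike numbers they correlated at -0.205 to 0.032. Deviations within a group sum to 0, so these values are not independent of each other.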

Additional observations from a re-analysis of the deposited data

Results flagged for a closer look

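In 3 named members all 3 same-numbered mTEC pairs of arrays moved one way and the SIEC pair moved at least 2-fold the other way. The SIEC side is 1 array per label, so in each case the difference was not tested. The Cdx1 probe goes against the SIEC labels, and with the labels exchanged all 3 would move the same way as in mTEC. Sema6a was -0.68 in mTEC and 1.07 in SIEC, or 0.855 in the authors' deposited values, which is under 2-fold. Zfp236 was -1.05 in mTEC and 4.41 in SIEC, where the array labelled Cdx1+/+ was not well above background, which makes the other array at least 5.12-fold higher. The long intergenic RNA probe at 82875474 was 2.41 in mTEC and -2.06 in SIEC, where the array labelled Cdx1-/- was not well above background, which makes it at least 4.16-fold lower. The second probe of that RNA gave 0.60 in mTEC and was not called.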

How the results depend on the processing

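No named call changed direction. Of 39 named calls, 14 passed under every alternative that could be fitted, among them Aqp4, Siglec15, Pcdh12, Nfatc1, Spink5, Dsc1 and the larger fall of Mro; 25 were lost under at least 1. Leaving out 1 mTEC array gave 30 to 41 called members, 4.93% to 6.53% of those tested, 13% to 19.6% in the higher 10 to 15 Mb bin and 0% to 2.5% in the lower one. Without the dim-probe filter 19 of 1146 members (1.66%) were called, 1.22% at 2-fold or more, beside 1.26% and 0.702% on other chromosomes. The share was then 5.13% in the higher bin and 0% in the lower one. Slide as a block gave 39 (6.16%), 19.6% and 2.44%; leaving out Cdx1-/- replicate 1 is the fit within slide 1. In 10 Mb bins the lower side's first share was 12.3%. Normexp background correction took the share called at 2-fold or more to 0.948%, beside 0.539% on other chromosomes, with 0% in the higher bin. The replicate block gave 75 called members (11.8%), 52 of them shared with the 73, beside 10.2% on other chromosomes. It gave 23.9% in the higher bin. Of the named calls 9 were lost with it and 8 gained, and its p is printed above beside those described. Normexp gave 15% of members called beside 15.3% on other chromosomes. Between 15 and 20 Mb the lower side's 18.8% became 12.5% with slide as a block and with the replicate block, and 6.12% without the dim-probe filter, where the higher side's 14.8% became 4.31%. Without that filter the 2-fold share of the higher 10 to 15 Mb bin was 3.85%. The other shares called, for all members and for bins up to 20 Mb, stayed within 1.5 times; single bins past 20 Mb were not recomputed. The causes were not tested. Of SIEC differences, 33 of 39 moved by under 0.5 in the authors' values. Dim probes limit what can be read: 513 members had no test.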
